A study of Homo sapiens with 4 samples.

Results

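The HOX genes encode homeodomain transcription factors and lie in 4 clusters, HOXA, HOXB, HOXC and HOXD. Here 38 protein-coding genes of these clusters were examined, 10 of HOXA, 10 of HOXB, 9 of HOXC and 9 of HOXD. They were taken by name, as cluster genes whose RefSeq accession an array probe carried, with no threshold on a measured value. In all, 21611 named genes had a probe on the array. HCT116, a human colorectal carcinoma cell line, had been separated by repeated transwell migration into cells that crossed the membrane (MG cells) and cells that stayed behind (non-MG cells), so both are enriched subpopulations of 1 line. MG and non-MG cells were each given 5 µM 5-azacytidine or vehicle for 48 h, and each of the 4 conditions was hybridized to 1 one-colour Agilent array. The study compared the cell types for their motility, and the treated with the untreated cells for genes under DNA methylation. No condition had a replicate, so a single ratio has no test. Cell type and drug were tested only over both levels of the other factor, in a limma fit additive in the 2 factors.

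Along each cluster the genes stand in the order of their paralogue groups, from 1 at the 3′ end to 13 at the 5′ end, and in the embryo the genes of low group number are switched on earlier and further towards the head. Adult tissues keep part of this code, and the colon epithelium is known for HOXB13 and for other genes of the posterior groups. Silent HOX genes are typically held by Polycomb complexes, and in cancer cells DNA methylation is often found at HOX promoters as well. 5-Azacytidine is built into nucleic acids, traps DNA methyltransferases and so lowers DNA methylation in dividing cells.

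The level of a probe is its log2 background-corrected intensity minus the 75th percentile of its array. Between 21384 and 21882 of 50594 probes were well above background on an array by the scanner flag, the 75th percentile lay between 75.2 and 98.7 intensity units, and no spot was saturated. The lowest intensity well above background lay between 9.95 and 11.8 units. A gene is called expressed if a probe of it was well above background on all 4 arrays, and its ratio is then the mean over such probes. A ratio is called past 1.5-fold beyond ±0.58 on the log2 scale. The error given in brackets after a ratio is the spot error, from probes printed 10 times per array, which covers spotting and scanning but not differences between cultures or labellings. All 4 arrays lay on 1 slide, with non-MG cells in row 1, MG cells in row 2, and with vehicle and 5-azacytidine in columns 3 and 4. Cell type and treatment thus cannot be told apart from the place of an array on the slide. Of 12 colon epithelial markers, 10 were expressed, the VIL1 probe stayed under the flag throughout, and that of GPA33 passed it on 1 array. Of 8 fibroblast, 6 blood and 5 endothelial markers, 1, 2 and 1 were expressed, respectively.

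To show what kind of sequence 5-azacytidine can act on at these genes, the 250 bases before the transcription start are printed for HOXD8, which was expressed, for HOXD1, which was not, and for PRAC1, a small gene between HOXB9 and HOXB13 that is not a HOX gene and was chosen after its values were seen. They are RefSeq sequences of GRCh38.p14, read 5′ to 3′ on the strand of the gene, and capitals mark each CG dinucleotide, the site of DNA methylation. The HOXD8 stretch is chr2:176129455-176129704 on the plus strand, the HOXD1 stretch is chr2:176188418-176188667 on the plus strand, and the PRAC1 stretch is chr17:48722519-48722768 on the minus strand.
HOXD8: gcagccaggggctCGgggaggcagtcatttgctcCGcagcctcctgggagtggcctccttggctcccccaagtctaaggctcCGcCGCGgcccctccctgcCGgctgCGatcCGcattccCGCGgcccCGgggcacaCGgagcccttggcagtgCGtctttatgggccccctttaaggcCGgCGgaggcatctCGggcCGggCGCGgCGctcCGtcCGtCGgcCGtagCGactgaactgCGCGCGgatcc
HOXD1: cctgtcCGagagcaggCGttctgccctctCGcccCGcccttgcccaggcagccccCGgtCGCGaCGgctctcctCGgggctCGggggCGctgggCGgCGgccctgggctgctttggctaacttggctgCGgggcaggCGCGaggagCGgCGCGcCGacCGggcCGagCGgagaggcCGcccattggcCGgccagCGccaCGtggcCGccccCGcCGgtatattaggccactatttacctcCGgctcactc
PRAC1: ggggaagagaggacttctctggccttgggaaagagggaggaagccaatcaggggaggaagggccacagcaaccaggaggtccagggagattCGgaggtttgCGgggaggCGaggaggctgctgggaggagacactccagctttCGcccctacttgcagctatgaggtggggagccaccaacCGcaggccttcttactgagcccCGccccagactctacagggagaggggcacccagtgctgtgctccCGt
These stretches hold 28 CG dinucleotides at HOXD8, 31 at HOXD1 and 7 at PRAC1. Over windows of 300 bases that also take in the first 50 bases of the transcript, 20 of the 38 members had an entry. The median was 14 CG over all 34943 windows, of which 96.0% held at least 1 CG. Of the HOXB members HOXB1 alone had an entry. With the richest window of each member, the median was 27 CG over 10 expressed members, with a range of 13 to 44, and 22 CG over all 17 of their windows. With the richest window it was 17 CG over 8 members that were well above background on no array, with a range of 4 to 36. The ranges overlap, and HOXD1, with 36 CG, lay above HOXD8, with 34. HOXC4, which was expressed, and HOXC5, which was not, shared 1 window with 15 CG. The count says nothing of whether these CG were methylated in the cells.

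Of the 38 members, 23 (60.5%) were expressed, compared with 59.0% of all named genes. Another 4, HOXA4, HOXB7, HOXC10 and HOXD11, were well above background on some arrays. The remaining 11 were so on none, HOXA2, HOXB1, HOXC5, HOXC11, HOXC12, HOXD1, HOXD4, HOXD9, HOXD10, HOXD12 and HOXD13, compared with 33.1% of all named genes. Their 12 probes had intensities between 1.99 and 12.2 units. The clusters differed in how much of them was used. Expressed were 8 of 10 HOXA genes, 8 of 10 HOXB genes, 5 of 9 HOXC genes and 2 of 9 HOXD genes. In HOXD only HOXD3 and HOXD8 were expressed, and HOXD11 was well above background on 1 array, that of non-MG cells with vehicle. Both HOXD9 probes were below this mark on every array.

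By position, 6 of 11 members of paralogue groups 1 to 4, 9 of 11 of groups 5 to 8 and 8 of 16 of groups 9 to 13 were expressed. In the posterior groups the split followed the cluster. HOXA9, HOXA10, HOXA11 and HOXA13 were expressed, as were HOXB9 and HOXB13, while 2 of 5 HOXC members of these groups (HOXC9 and HOXC13) and 0 of 5 HOXD members were. HOXB13, the posterior gene typical of the distal colon and prostate, had levels of 2.64 in non-MG cells with vehicle, 2.82 in non-MG cells with 5-azacytidine, 2.67 in MG cells with vehicle and 2.66 in MG cells with 5-azacytidine. At the other end, the group 1 genes examined, HOXB1, which patterns the hindbrain, and HOXD1, were well above background on no array.

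**Figure D1:**
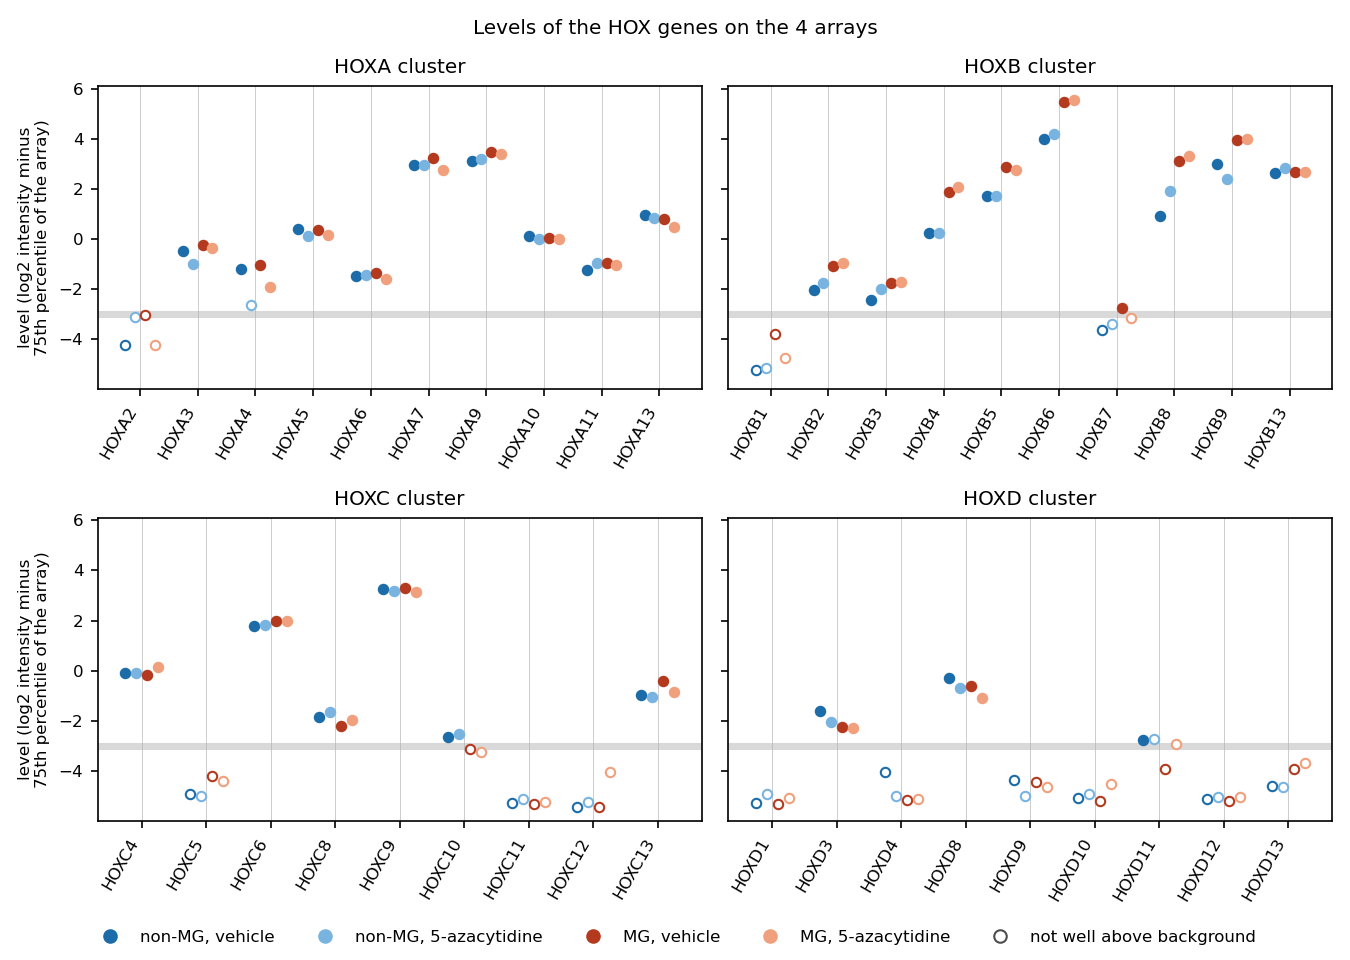
Levels (log2 intensity minus the 75th percentile of the array) of the 38 HOX members on the 4 arrays, 1 panel per cluster, with filled points for arrays on which a probe was well above background and open points for the others. The grey band spans the lowest level well above background on the arrays, from -3.12 to -2.92. HOXB2 to HOXB9 show the MG points above the non-MG points, and 6 of 9 HOXD members have open points on all arrays.

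In the comparison of MG with non-MG cells, the HOXB genes stood out. With vehicle, 7 members were higher in the MG cells past 1.5-fold, and all of them were HOXB genes, HOXB2, HOXB3, HOXB4, HOXB5, HOXB6, HOXB8 and HOXB9. Over all 12752 expressed genes, 5.99% were higher and 7.55% lower. With 5-azacytidine, 7 members were again higher, 6 HOXB genes and HOXA3, compared with 6.12% of all genes higher and 5.94% lower. The 6 HOXB genes, all of those named but HOXB3, were higher past 1.5-fold in both comparisons, which share no array, whereas 2.92% of all expressed genes were. All 8 expressed probes of HOXB2 to HOXB9 gave ratios above 0 in both, although under normexp background correction that of HOXB3 with 5-azacytidine was -0.11. They were spread over the array, from spot row 35 to 382 of 384.

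The fit additive in cell type and treatment takes the mean of both MG over non-MG ratios of a gene. Its error combines their disagreement, 1 residual degree of freedom, with a variance pooled over all 12752 expressed genes, weighted as 4.69 degrees of freedom. At an adjusted p under 0.05 (limma, Benjamini-Hochberg over 12752 genes), 8 of 23 expressed members were higher in MG cells, the 7 HOXB genes and HOXA3, and 1 was lower, HOXD8. Over all expressed genes, 14.8% were higher and 12.6% lower by this rule. HOXB4 had a mean log2 ratio of 1.72 ± 0.10 (SE, limma adjusted p = 0.0031), HOXB8 had 1.78 ± 0.19 (limma adjusted p = 0.0087), and HOXB3 had 0.48 ± 0.13 (limma adjusted p = 0.041). The p-values measure only the spread between these 4 arrays, borrowed in large part from other genes, and this spread may be technical.

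HOXB8, a posterior trunk gene also known from myeloid progenitors, had the largest ratio of the members with vehicle. Its level was 0.92 in non-MG cells with vehicle, 1.92 in non-MG cells with 5-azacytidine, 3.10 in MG cells with vehicle and 3.30 in MG cells with 5-azacytidine. Both MG arrays lay above both non-MG arrays, and the non-MG arrays differed from each other. Between MG and non-MG cells the log2 ratio was 2.18 (spot error 0.09) with vehicle, a 4.54-fold difference, and 1.38 (0.09) with 5-azacytidine, a 2.60-fold difference. These ratios ranked 9 and 38 from the highest among all expressed genes.

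HOXB4, which is known for expanding blood stem cells when overexpressed, had levels of 0.24 in vehicle-treated and 0.26 in 5-azacytidine-treated non-MG cells, and of 1.87 and 2.06 in the MG cells. The drug conditions lay close together and the cell types far apart. MG over non-MG cells was 1.63 (0.11) with vehicle and 1.80 (0.11) with 5-azacytidine on the log2 scale, 3.10-fold and 3.48-fold, and ranked 22 and 19.

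HOXB6, which is expressed in the limb bud and in erythroid precursors, had levels of 3.98 and 4.18 in non-MG cells and of 5.47 and 5.55 in MG cells, with vehicle and 5-azacytidine, respectively. Its ratios were 1.49 (0.07) and 1.37 (0.07), which is 2.80-fold and 2.59-fold. Its probe had intensities of 1374 and 1362 units on the non-MG arrays and of 4370 and 4528 units on the MG arrays, far above background on each.

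HOXB5, a gene of the developing gut wall and lung, had levels of 1.74 and 1.73 in non-MG cells and of 2.89 and 2.76 in MG cells. As in HOXB4 and HOXB6, the drug arrays of a cell type were close together. The ratios were 1.15 (0.09) with vehicle and 1.03 (0.09) with 5-azacytidine, 2.22-fold and 2.04-fold.

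HOXB9, the most posterior of the run, had levels of 2.99 and 2.38 in non-MG cells and of 3.94 and 4.001 in MG cells. Here too both MG arrays lay above both non-MG arrays. The log2 ratio was 0.95 (0.08) with vehicle and 1.62 (0.08) with 5-azacytidine, 1.93-fold and 3.08-fold.

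HOXB2 and HOXB3, which specify hindbrain segments, were dimmer. HOXB2 had levels of -2.04 and -1.74 in non-MG cells and of -1.07 and -0.95 in MG cells, as the mean of 2 probes, and its ratios were 0.96 (0.21) and 0.79 (0.20). HOXB3 had levels of -2.43 and -2.00 in non-MG cells and of -1.75 and -1.72 in MG cells, and its ratios were 0.68 (0.28) and 0.28 (0.28). For HOXB3 the difference with 5-azacytidine was about the size of its spot error. With a normexp background correction, the HOXB2 ratios became 0.34 and 0.35 and that of HOXB3 with vehicle became 0.10, none past 1.5-fold, while HOXB4, HOXB5, HOXB6, HOXB8 and HOXB9 stayed past it in both comparisons.

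HOXB7, a gene often overexpressed in carcinomas, was well above background in MG cells with vehicle alone. Its probe had 7.05 and 7.12 units in non-MG cells with vehicle and 5-azacytidine, and 14.8 and 10.99 units in MG cells. With vehicle, its signal set a lower bound of 1.30-fold on the excess in MG cells. On the log2 scale this bound is 0.38, which is smaller than the spot error of the HOXB7 ratio, 0.66. A difference in HOXB7 between the cell types is therefore not settled. With 5-azacytidine, neither array was well above background. HOXB1, at the anterior end of the cluster, was below this mark on all 4 arrays.

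HOXA2, the paralogue of HOXB2 among the members, was well above background on no array. For the groups of the other genes of the run, paralogues were expressed in other clusters. With vehicle and 5-azacytidine, MG over non-MG ratios were -0.09 (0.12) and 0.24 (0.12) for HOXC4, the paralogue of HOXB4, and -0.02 (0.12) and 0.03 (0.12) for HOXA5, that of HOXB5. HOXA6 had 0.12 (0.24) and -0.16 (0.24), and HOXC6 had 0.18 (0.09) and 0.17 (0.09), beside HOXB6. The paralogues of HOXB8 were on the other side of 0, with -0.34 (0.28) and -0.33 (0.28) for HOXC8 and -0.33 (0.12) and -0.42 (0.18) for HOXD8. Of group 9, HOXA9 had 0.35 (0.06) and 0.20 (0.06), on the side of HOXB9, and HOXC9 had 0.05 (0.08) and -0.03 (0.08). None of the expressed paralogues named so far was past 1.5-fold as the mean of its probes, while the brighter HOXA9 probe was, at 0.64 (0.07) with vehicle. Beside HOXB3, each group 3 paralogue was past it in 1 condition. HOXA3 had 0.26 (0.16) with vehicle and 0.66 (0.16) with 5-azacytidine, and HOXD3 had -0.65 (0.28) and -0.21 (0.28). HOXA4, a paralogue of HOXB4 not well above background in non-MG cells with 5-azacytidine, had 0.16 (0.18) with vehicle. With 5-azacytidine the HOXA4 ratio, taken with that signal below the flag, was 0.73 (0.38), 1.66-fold.

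**Figure D2:**
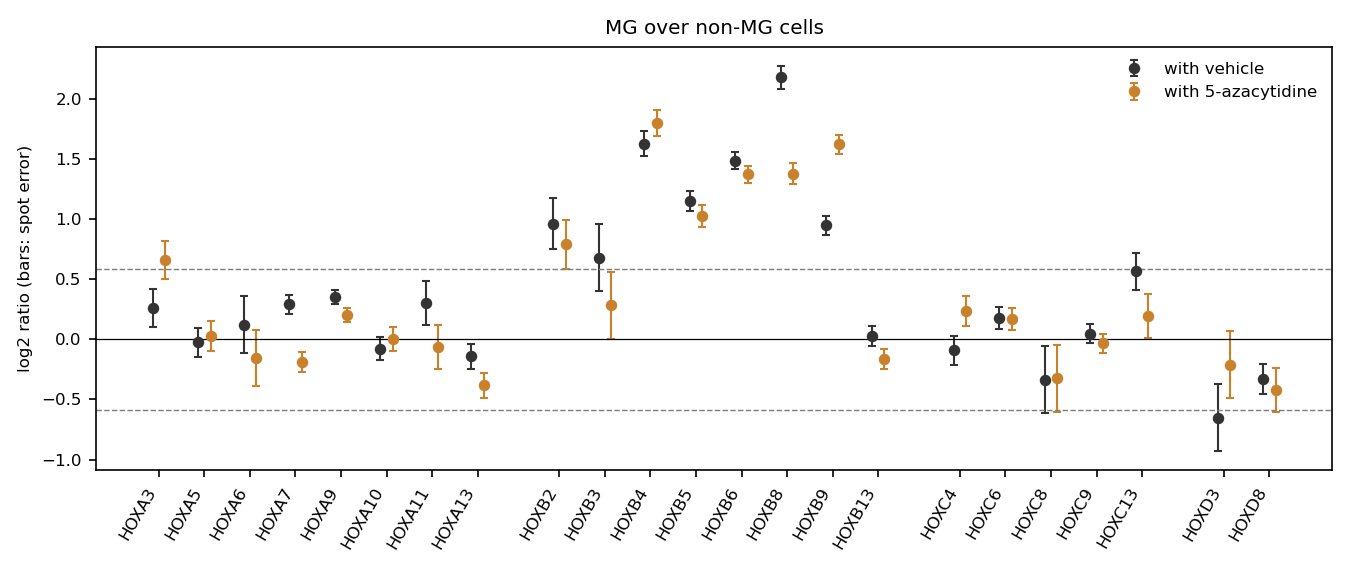
MG over non-MG log2 ratios for the 23 expressed HOX members in cluster order, with vehicle (black) and with 5-azacytidine (orange). Bars are the spot error of the ratio and dashed lines mark 1.5-fold. HOXB4, HOXB5, HOXB6, HOXB8 and HOXB9 lie between 0.95 and 2.18 in both conditions, and the members of the other clusters between -0.65 and 0.66.

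The higher levels did not extend to HOXB13, which lies at the 5′ end of the cluster apart from the run. Its ratios were 0.03 (0.08) with vehicle and -0.16 (0.08) with 5-azacytidine. On the side of HOXB1, the expressed neighbours SKAP1, SNX11, CBX1 and NFE2L1 had ratios of 0.47, 0.08, 0.27 and 0.30 with vehicle and of 0.43, 0.20, 0.37 and 0.53 with 5-azacytidine. On the side of HOXB13, CALCOCO2, ATP5MC1, UBE2Z and SNF8 lay between -0.13 and 0.25 with vehicle and between 0.03 and 0.31 with 5-azacytidine. These 8 neighbours were the expressed ones among the nearest protein-coding genes with a probe, apart from PRAC1 and PRAC2. TTLL6, the nearest on the side of HOXB13, and COPZ2, on the side of HOXB1, were well above background on no array. None of the 8 neighbours was past 1.5-fold, but 1 of them passed under normexp, with at most 0.75. Under median centring 3 passed, with at most 0.79, where the median of all genes also moved up. Within the cluster, HOXB-AS3, a noncoding RNA on the opposite strand near HOXB5, had ratios of -0.05 (0.28) and 0.03 (0.24) by its 1 probe expressed on all arrays. PRAC2, which follows HOXB9 in the order of the region, had -0.26 (0.10) and -0.37 (0.12). Levels of RNA do not tell a larger share of cells that use HOXB genes from a higher level per cell.

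**Figure D3:**
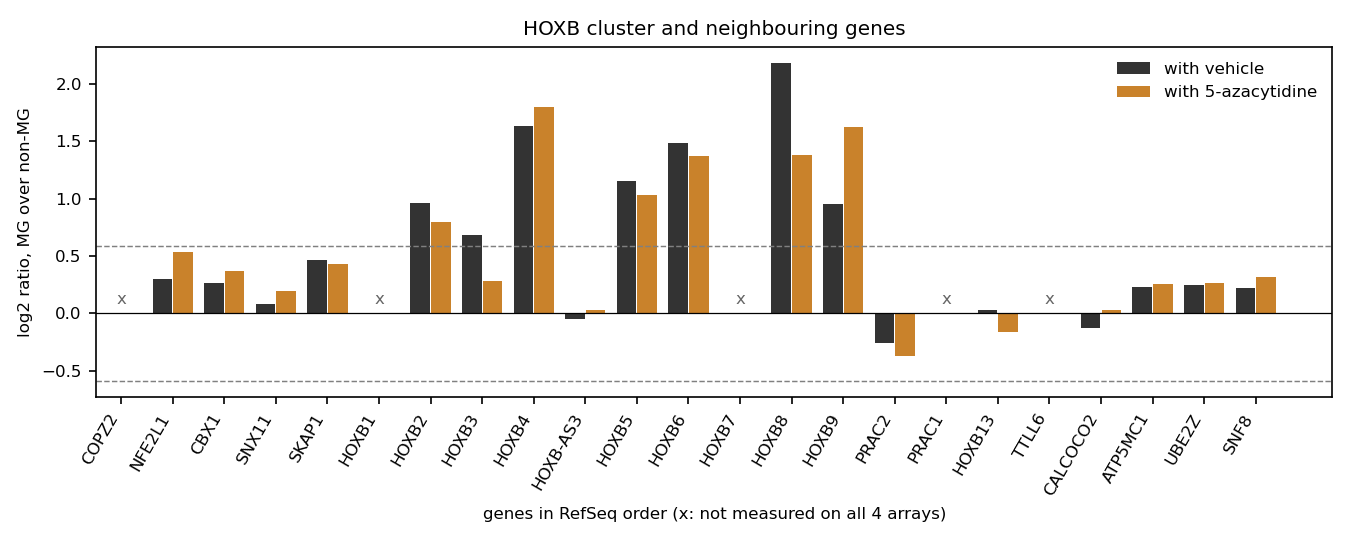
MG over non-MG log2 ratios with vehicle (black) and with 5-azacytidine (orange) for the HOXB cluster and its neighbours, in the order of RefSeq along the chromosome and not to scale. Dashed lines mark 1.5-fold and x marks genes without a probe well above background on all 4 arrays. Bars past 1.5-fold start at HOXB2 and end at HOXB9, and HOXB-AS3 between HOXB4 and HOXB5 is near 0.

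The expressed members outside the run had ratios of about the size seen over all genes. Outside HOXB2 to HOXB9, the median size of the log2 ratio was 0.22 with vehicle and 0.19 with 5-azacytidine over 16 expressed members, compared with 0.25 in either case over all expressed genes. With vehicle, HOXD3 alone of these was past 1.5-fold, at -0.65 (0.28), and with 5-azacytidine HOXA3 alone, at 0.66 (0.16).

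HOXD3, a gene tied to cell adhesion and to skeletal patterning of the neck, had levels of -1.59 and -2.06 in non-MG cells with vehicle and 5-azacytidine and of -2.24 and -2.27 in MG cells. The non-MG array with vehicle stood above the other 3. Its ratio with 5-azacytidine was -0.21 (0.28), and with vehicle it was within 1.5-fold under quantile normalization (-0.56), median centring (-0.46) and normexp (-0.16). HOXA3, which directs the development of pharyngeal organs, had levels of -0.49 and -1.001 in non-MG cells and of -0.22 and -0.34 in MG cells. The array of non-MG cells with 5-azacytidine was the lowest, and with vehicle the ratio was 0.26 (0.16). With 5-azacytidine it was within 1.5-fold under normexp (0.19) and with the 75th percentile taken over expressed probes (0.58).

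The posterior HOXA genes are tied to limb, urogenital and blood development. HOXA9, which drives self-renewal in acute leukaemia, had levels of 3.11 and 3.20 in non-MG cells and of 3.46 and 3.41 in MG cells, and ratios of 0.35 (0.06) and 0.20 (0.06). Its 2 probes gave 0.07 (0.09) and 0.64 (0.07) with vehicle. HOXA10, a regulator of the uterus and of blood cells, had ratios of -0.08 (0.10) and 0.01 (0.10), but its 2 probes went opposite ways with vehicle, -0.71 (0.11) and 0.56 (0.16). The mean of HOXA10 therefore hides a disagreement between probes, and no direction is given for it.

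HOXA11, needed for the forearm and the uterus, had levels of -1.24 and -0.96 in non-MG cells and of -0.94 and -1.02 in MG cells. HOXA13, a gene of the digits, hindgut and genital tract, had levels of 0.96 and 0.85 in non-MG cells and of 0.82 and 0.47 in MG cells. Their ratios between the cell types lay between -0.38 and 0.30. HOXA5, known in lung development, had levels of 0.39 and 0.12 in non-MG cells and of 0.36 and 0.15 in MG cells, so the treated arrays were the lower ones in both cell types. HOXA6 had levels of -1.46 and -1.43 in non-MG cells and of -1.33 and -1.59 in MG cells. HOXA7 had levels of 2.96 and 2.95 in non-MG cells and of 3.25 and 2.76 in MG cells, and ratios of 0.29 (0.08) and -0.19 (0.08). None of these genes was past 1.5-fold between the cell types in either condition.

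Of the 5 expressed HOXC genes, HOXC9, HOXC6 and HOXC4 differed least between the cell types. HOXC9, a thoracic patterning gene, had levels of 3.25 and 3.17 in non-MG cells and of 3.30 and 3.14 in MG cells. HOXC6 had levels of 1.79 and 1.81 in non-MG cells and of 1.97 and 1.98 in MG cells. HOXC4 had -0.08 and -0.09 in non-MG cells and -0.18 and 0.14 in MG cells. These 3 genes stayed within 0.24 of equal levels on the log2 scale between the cell types. HOXC8, a gene of the trunk, had levels of -1.85 and -1.64 in non-MG cells and of -2.18 and -1.97 in MG cells, with a spot error of 0.28 on each ratio. HOXC13, known for hair and nail keratin genes, had levels of -0.97 and -1.04 in non-MG cells and of -0.40 and -0.84 in MG cells. Its ratio with vehicle, 0.57 (0.16), lay just inside 1.5-fold, and it passed under quantile normalization, at 0.63, and median centring, at 0.76. HOXC10 was well above background in non-MG cells alone, with 13.9 and 13.2 units there and 11.4 and 10.3 units in MG cells. The bounds for non-MG over MG cells were 1.37-fold with vehicle and 1.43-fold with 5-azacytidine. On the log2 scale they are 0.46 and 0.52, about the size of the spot error of either ratio, 0.45.

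The counts of expressed HOX genes past 1.5-fold with 5-azacytidine were small, as the shares of all expressed genes would also give for 23 genes. In MG cells, 0 of 23 expressed members were higher and 0 were lower past 1.5-fold after treatment, compared with 2.93% of all expressed genes higher and 1.61% lower. In non-MG cells, 1 was higher, HOXB8, and 1 was lower, HOXB9, compared with 1.78% higher and 1.44% lower. A gene that the treated arrays show below the flag is not in these counts, as HOXA4, which was lower past 1.5-fold in both cell types. The median size of the log2 ratio was 0.13 over the members and 0.14 over all expressed genes in MG cells, and 0.18 and 0.14 in non-MG cells. The drug comparisons use different arrays from each other but share every array with the comparisons of the cell types. In the additive fit, 0 members passed for the drug at an adjusted p under 0.05 (limma), compared with 0.502% of all genes higher and 0.0314% lower. At an unadjusted p under 0.05 of the same limma fit, 1 member was higher, HOXB8, and 1 was lower, HOXD8, compared with 6.64% and 9.17% of all genes.

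None of the 11 members that were not well above background with vehicle in either cell type came to be so with 5-azacytidine. Over all genes, 6.95% of 7697 such genes did so in at least 1 cell type, a share at which fewer than 1 of 11 would do so. In the other direction, 1 of 25 members well above background with vehicle in MG cells was not so with the drug (HOXB7), and 2 of 26 in non-MG cells (HOXA4 and HOXD11), compared with 3.62% and 2.48% of all genes. HOXD1, whose probe is printed 10 times per array, had 2.27 and 2.48 units in non-MG cells with vehicle and 5-azacytidine and 2.50 and 2.85 units in MG cells, all below the detection limit. Of the other members without such a signal, only HOXA2 had an array above 10 units, with 12.2 units in MG cells with vehicle. At these intensities a change below the limit is not detectable.

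HOXB8 and HOXB9, which lie next to each other in the cluster, were the members that passed 1.5-fold with the drug in non-MG cells, and in opposite directions. HOXB8 was higher by 1.005 (0.10), 2.01-fold, and HOXB9 was lower, at -0.62 (0.09), 1.53-fold. In MG cells their ratios were 0.20 (0.08) and 0.06 (0.07), both within 1.5-fold. The response in MG cells minus that in non-MG cells was -0.80 (0.13) for HOXB8 and 0.68 (0.11) for HOXB9. The HOXB9 ratio was within 1.5-fold under quantile normalization (-0.56), under normexp (-0.44) and with the 75th percentile taken over expressed probes (-0.54), and the HOXB8 ratio stayed between 0.78 and 1.08 under every alternative run. All of these rest on 1 array per condition.

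**Figure D4:**
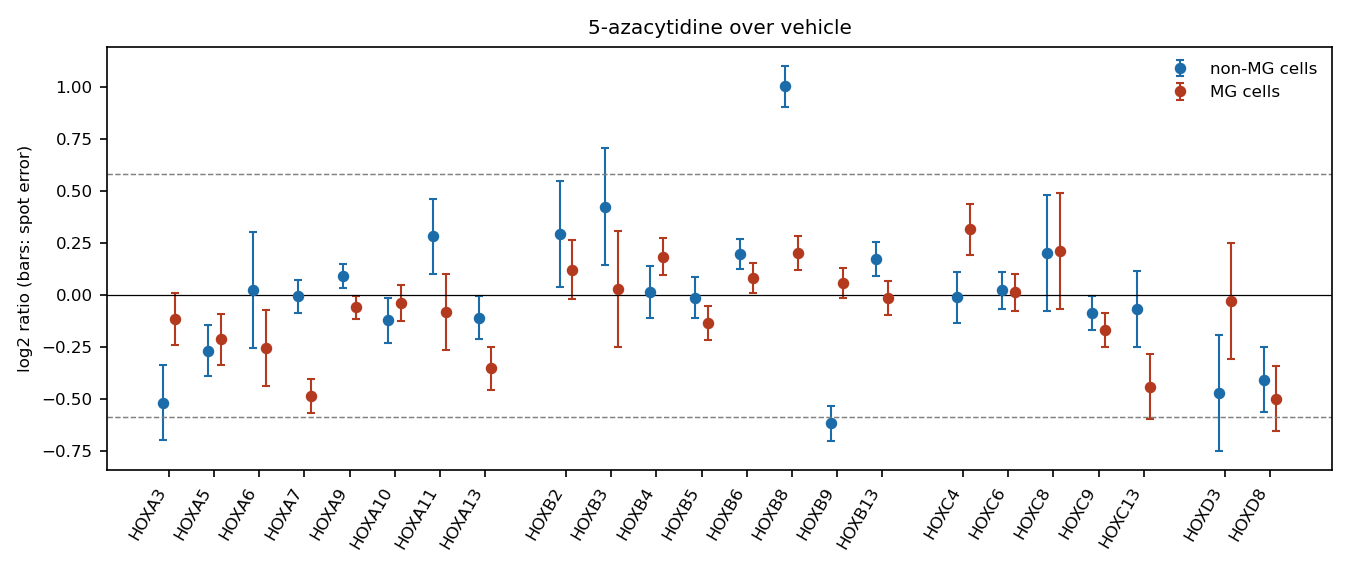
Log2 ratios of 5-azacytidine over vehicle for the 23 expressed HOX members in cluster order, in non-MG cells (blue) and in MG cells (red). Bars are the spot error of the ratio and dashed lines mark 1.5-fold. HOXB8 (1.005) and HOXB9 (-0.62) in non-MG cells are the points outside the lines.

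Among the expressed members short of 1.5-fold, HOXD8 had the lowest ratio in MG cells, -0.50 (0.16), and -0.41 (0.16) in non-MG cells. Its levels were -0.27 and -0.68 in non-MG cells with vehicle and 5-azacytidine and -0.61 and -1.10 in MG cells, so that the treated array was the lower in both cell types. HOXA7 had -0.48 (0.08) in MG cells and 0.00 (0.08) in non-MG cells, a difference of -0.48 (0.11). HOXC13 had -0.44 (0.16) in MG cells, and HOXA3 had -0.51 (0.18) in non-MG cells. All 8 expressed HOXA genes had ratios below 0 in MG cells, with a median of -0.16, and 5 of 8 did in non-MG cells, compared with 53.0% and 59.5% of all expressed genes. For HOXA9 and HOXA10 the 2 probes lay on opposite sides of 0 in MG cells, 0.04 and -0.16 for HOXA9 and 0.19 and -0.26 for HOXA10. Under the alternatives 7 or 8 of them were below 0 in MG cells and 4 to 7 in non-MG cells. The HOXB genes had a median of 0.07 in MG cells and 0.19 in non-MG cells. HOXB2 had 0.12 (0.14) in MG cells as the mean of 2 probes that went opposite ways, 0.65 (0.16) and -0.40 (0.24), so its drug ratio has no settled direction.

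HOXA4 lies between HOXA3 and HOXA5 and was not expressed on all arrays. Of the HOXA genes well above background with vehicle, it had the lowest drug ratios. Its probe had 38.4 units in non-MG cells with vehicle, 12.1 in non-MG cells with 5-azacytidine, 48.6 in MG cells with vehicle and 25.8 in MG cells with 5-azacytidine. Both treated arrays lay below both vehicle arrays. In MG cells both arrays were above background, and the ratio of treated over vehicle cells was -0.88 (0.24), 1.84-fold lower. In non-MG cells the treated array was not well above background, and its signal gave a ratio of -1.45 (0.34), 2.74-fold lower. HOXD11 had 12.7 units in non-MG cells with vehicle, 11.45 in non-MG cells with 5-azacytidine, 6.53 in MG cells with vehicle and 12.7 in MG cells with 5-azacytidine, and no fold could be set for the drug in non-MG cells.

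A list of 20 noncoding and neighbouring RNAs of the clusters had 11 matched genes, of which 6 were expressed and none was past 1.5-fold in any of the 4 comparisons. HOTAIRM1, a noncoding RNA at the 3′ end of HOXA, had drug ratios of -0.42 (0.10) in MG cells and -0.28 (0.10) in non-MG cells. HOTAIR, which lies in HOXC and binds chromatin regulators, had -0.11 (0.18) and 0.00 (0.24) by the 1 of its 8 probes that was expressed. PRAC1, whose upstream sequence is shown above, did pass from below to above background with the drug. Its probe had 2.05 units in non-MG cells with vehicle, 14.5 with 5-azacytidine, 2.27 in MG cells with vehicle and 20.4 with 5-azacytidine, at least 1.67-fold higher in treated non-MG cells and at least 1.83-fold in treated MG cells. HOXB13 and HOXB9, the nearest members on either side, had drug ratios of -0.01 and 0.06 in MG cells and of 0.18 and -0.62 in non-MG cells. HAGLROS, a noncoding RNA of HOXD, was well above background in MG cells with 5-azacytidine alone, at least 1.59-fold above MG cells with vehicle. HOTAIRM1, HOTAIR and HAGLROS were named after their values were seen.

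HOX proteins bind DNA together with TALE homeodomain proteins of the PBX, MEIS and PKNOX families. Of 9 such genes, 8 were matched and 7 expressed, all but MEIS1. PBX3 was the only one past 1.5-fold with the drug, at -0.71 (0.14) in non-MG cells and -0.43 (0.12) in MG cells.

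Polycomb complexes keep HOX genes silent and Trithorax proteins keep them active. All 27 matched Polycomb genes of 28 listed and all 15 matched Trithorax genes and HOX activators of 16 were expressed. Of the Polycomb genes, 1 was higher and 2 were lower past 1.5-fold with the drug in MG cells, compared with 2.93% and 1.61% of all genes, and 0 in non-MG cells, compared with 1.78% and 1.44%. JARID2, a subunit that recruits the H3K27 methyltransferase, had 0.64 (0.09) in MG cells. RNF2, the main ubiquitin ligase of Polycomb complex 1, had -0.83 (0.08) and PCGF2 had -0.67 (0.24). Between the cell types, 2 Polycomb genes were higher (MTF2 and PCGF6) and 1 was lower (JARID2) in MG cells with vehicle, compared with 5.99% and 7.55% of all genes. With 5-azacytidine 2 were higher (MTF2 and PCGF6) and 2 lower (EZH1 and RNF2), compared with 6.12% and 5.94%. None of the Trithorax genes and activators passed 1.5-fold with the drug in either cell type, and between the cell types KDM6B was lower in MG cells with vehicle and ASH1L with 5-azacytidine.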

How the data were processed

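The authors labelled 400 ng of RNA per array and deposited Agilent Feature Extraction (version 11.5.1.1) output, with linear background-corrected intensity and flags for every spot, not normalized between arrays. They also deposited log2 values from GeneSpring, filtered on the lowest 20th percentile and on flags, which for 24161 probes differed from the log2 intensity ratios by a constant per comparison to within 0.01. The labels name RNAiso Plus and the methods an RNeasy kit.

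Here control spots and outlier-flagged spots were left out (5 of 50599 probes lost), spots of a probe were averaged, and the log2 intensity minus the 75th percentile of its array was taken. Probes were named by accession without version from RefSeq (GRCh38.p14), which matched 30000 probes to 21611 genes. The array design refers to GRCh37, so only the RefSeq windows have coordinates. A probe not well above background has a bound, the brighter level over the higher of the lowest level well above background and its own level on the dimmer array. Where its own level is the higher, as for HOXA4, the bound is the measured ratio. No bound includes spot error. All 38 members were accounted for, and not every gene of the clusters is reported here. Of the gene lists, expressed genes past 1.5-fold with the drug were named, at most 3 per list, and any others after their values were seen. The members and lists were chosen with earlier results of these data known. Counting was tested on simulated vehicle arrays of MG and non-MG cells with 12752 genes, where 197 of 200 genes changed 2-fold were recovered and 59 of 12552 unchanged genes passed. The simulated noise was spot error alone, without differences between cultures or labellings. The 59 genes are therefore no measure of how often unchanged genes pass on the real arrays. The limma fit additive in cell type and treatment, added after the data were seen, was tested on simulated arrays without interaction, where 170 of 200 genes changed 2-fold between the cell types were recovered at an adjusted p under 0.05 and 5 of 12552 unchanged genes were called. The software was Python 3.11.15 (matplotlib 3.10.9, pandas 2.3.3, numpy 2.4.6) and limma 3.58.1 under R 4.3.3. Normexp (offset 50), quantile normalization, other centrings, filters, thresholds and the authors' values were tried as alternatives.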

Additional observations from a re-analysis of the deposited data

How the results depend on the processing

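With 1 array per condition, spot error is the only error of a single ratio, and neither cultures nor labellings were repeated. No paired analysis was possible because the labels give each condition 1 sample and so a single replicate number, and the additive fit, with each factor as a term for the other, takes its place. Its calls rest on an adjusted p and cover both conditions at once, so they are not the same quantity as a count past 1.5-fold in 1 condition. For MG against non-MG cells it called 1 lower member, beside 0 past 1.5-fold with 5-azacytidine. For the drug it called 0 higher and 0 lower, beside 1 and 1 past 1.5-fold in non-MG cells. A drug response that differs between the cell types, as in HOXB8 and HOXB9, enters its error. The fit was added after the data were seen. Of 1104 ratios of single members compared under 12 alternatives, 1077 kept their side of the threshold, 18 fell within it, 9 passed it and none past 1.5-fold changed direction. The filters, raised signals, the brightest probe and the other thresholds leave the ratio of an expressed member with 1 probe unchanged by construction. Such counts therefore overstate how stable the ratios are. For HOXB2 to HOXB9 between the cell types, 161 of 168 kept their side. The count of these genes higher in both conditions was 6, and 4 to 6 under the alternatives. Median centring moved the median of all genes by 0.20 with vehicle and 0.26 with 5-azacytidine, towards higher in MG cells, and left the HOXB ratios the higher by the same amounts. Normexp on the median spot intensity shrinks dim ratios by its offset. Matching by gene symbol was not run, as the files used hold no such column. Taking probes well above background on both arrays compared was added after the data were seen. The number of expressed members was 23 to 29 under the alternatives.

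With vehicle, 12 members were higher in MG cells without a filter and 4 at 2-fold, in place of 7. The 1 lower member became 0 under normexp, quantile normalization, median centring and 2-fold, 2 with the filter of the methods and with the brightest probe, and 3 without a filter. With 5-azacytidine, 0 lower members became 1 with the filter of the methods and 2 without a filter. In MG cells with the drug, 0 higher members became 1 with the filter of the methods and with the brightest probe and 3 without a filter. There 0 lower members became 1 with the filter of the methods, with signals raised to the detection limit, at 1.4-fold and with probes well above background on both arrays, and 3 without a filter. In non-MG cells with the drug, 1 higher member became 2 without a filter. The 1 lower member became 0 under normexp, quantile normalization, the 75th percentile of expressed probes and 2-fold, 2 under median centring, the filter of the methods, raised signals and 1.4-fold, and 4 without a filter. Counts without a filter include the members below background. The cause was not tested.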

Other observations

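Retinoic acid is a classical inducer of the anterior HOX genes. Of 16 genes of this pathway, 9 were expressed, and 2 were higher past 1.5-fold with 5-azacytidine in each cell type, with none lower, compared with 2.93% of all expressed genes higher in MG cells and 1.78% in non-MG cells. CYP26A1, which breaks down retinoic acid and is itself one of its target genes, had levels of -1.72 in non-MG cells with vehicle, -0.13 with 5-azacytidine, -1.30 in MG cells with vehicle and 0.24 with 5-azacytidine. Both treated arrays lay above both vehicle arrays, and the log2 ratios were 1.60 (spot error 0.22) in non-MG cells and 1.54 (0.16) in MG cells. STRA6, a retinol transporter, had 1.41 (0.16) and 0.99 (0.11). Between the cell types 1 gene of the list was higher in MG cells, STRA6, with 1.37 (0.16) with vehicle and 0.95 (0.11) with 5-azacytidine, and 1 was lower, the receptor gene RARA, with -1.35 (0.13) and -0.64 (0.15). The anterior HOX members HOXA3, HOXB2, HOXB3, HOXB4, HOXC4 and HOXD3 had ratios between -0.51 and 0.43 with the drug. HOXA4 had -0.88 (0.24) in MG cells and -1.45 (0.34) in non-MG cells, where its treated array was not well above background.

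The EVX genes flank the HOXA and HOXD clusters, and CDX1, CDX2 and CDX4 regulate HOX genes in the embryo and the gut. Of 8 EVX and ParaHox genes, 3 were expressed (EVX1, CDX1 and CDX2), and none was past 1.5-fold in any comparison. CDX2, a master gene of intestinal identity, had levels of 2.01 and 2.18 in non-MG cells with vehicle and 5-azacytidine and of 2.34 and 2.56 in MG cells. These 3 genes and RARA were named after their values were seen.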
